A study of Mus musculus with 4 samples.

Results

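The p53 and Ink4 senescence checkpoint genes comprised Trp53, Mdm2, Cdkn1a, Cdkn1b, Cdkn2a, Cdkn2b, Ccng1, Bax, Bbc3 and Sesn1, which were taken by name from a table of 36846 gene symbols, and all 10 were found and passed the filter on low counts. They were followed in Dnmt3l-KO mouse embryonic fibroblasts (MEFs, 2 libraries) and in wild-type (WT) MEFs (2 libraries). All 4 libraries came from C57BL/6 lines at passage 4, grown in DMEM with fetal bovine serum and given no further treatment in the labels. The lines of both genotypes were made from embryos of day 13.5 to 14.5, the offspring of crosses between Dnmt3l+/- parents. Whether the libraries of 1 genotype stem from different embryos or lines is not stated, so each p-value reflects only how far these libraries spread, and that spread may be technical. Dnmt3l, which encodes a catalytically inactive partner of the enzymes that lay down new DNA methylation, had 0 counts in both Dnmt3l-KO libraries and 6 counts and 1 count in the WT libraries, too few to check the labels.

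The p53 protein, encoded by Trp53, is held low by the ubiquitin ligase Mdm2 and is freed by DNA damage or other stress. It then activates the genes of cell cycle arrest and cell death. The Ink4 locus encodes inhibitors of the cyclin D kinases together with Arf, a protein that blocks Mdm2, and so feeds both the retinoblastoma pathway and p53. Embryonic fibroblasts of the mouse are known to raise Ink4 locus products and p53 activity over successive passages until they stop dividing, which is why these genes are read as a measure of culture senescence in such lines.

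Cdkn2a (chromosome 4, 89274473 to 89294619 in RefSeq, GRCm38.p6) encodes its proteins, p19Arf and p16Ink4a, from separate first exons that are spliced to the same second exon and read in different frames. The deposited table holds a transcript for each, and the sequences across the splice junction are shown because reads over the first exons and these junctions tell the forms apart, whereas reads over the shared exons do not. Lower case gives the last 40 bases of the first exon and capitals give the first 20 bases of the shared second exon (GENCODE transcripts, GRCm38, minus strand, all within the coding sequence).
p19Arf first exon to exon 2: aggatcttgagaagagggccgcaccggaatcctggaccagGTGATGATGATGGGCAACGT
p16Ink4a first exon to exon 2: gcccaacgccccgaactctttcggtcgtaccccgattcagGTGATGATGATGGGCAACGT
The p19Arf first exon was annotated at chr4:89294334-89294653 and was 320 bases long, and the p16Ink4a first exon was annotated at chr4:89281986-89282192 and was 207 bases long. The outer ends of these GENCODE first exons lay 12461 bases apart. RefSeq places the p19Arf start at 89294619, inside the GENCODE exon, and the p16Ink4a start at 89282192. The windows around the RefSeq starts, 250 bases before to 50 bases after, are shown (GRCm38.p6, minus strand).
Cdkn2a p19Arf start, chr4:89294570-89294869: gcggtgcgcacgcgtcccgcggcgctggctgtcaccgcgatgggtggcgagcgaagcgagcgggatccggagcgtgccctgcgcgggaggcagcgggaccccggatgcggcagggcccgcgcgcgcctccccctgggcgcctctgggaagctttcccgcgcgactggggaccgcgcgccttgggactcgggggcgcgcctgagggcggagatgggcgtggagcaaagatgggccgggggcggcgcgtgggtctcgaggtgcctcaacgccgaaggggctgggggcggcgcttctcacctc
Cdkn2a p16Ink4a start, chr4:89282143-89282442: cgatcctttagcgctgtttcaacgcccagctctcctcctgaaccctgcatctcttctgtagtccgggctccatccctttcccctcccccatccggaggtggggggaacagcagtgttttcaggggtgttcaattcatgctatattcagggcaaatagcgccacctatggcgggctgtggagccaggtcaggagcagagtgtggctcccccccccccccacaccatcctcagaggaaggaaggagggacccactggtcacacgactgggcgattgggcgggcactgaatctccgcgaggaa
The windows differed in CpG content, the dinucleotide that DNA methyltransferases act on. The p19Arf window held 45 CpGs and the p16Ink4a window held 12.

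The 10 genes had 15 such start windows in RefSeq, of which 3 belonged to Bbc3 and 2 each to Cdkn1a, Cdkn2a and Sesn1. Their median CpG number was 24, against 7 over all 32851 windows of the same length. The fewest, 2, lay at the upstream start of Cdkn1a. A p53 half-site was searched for in each window as RRRCWWGYYY, where R is A or G, W is A or T and Y is C or T. The pattern reads the same on both strands, and matches may overlap. It was found in 6 of the 15 windows (40%), those of Trp53, Mdm2, Cdkn1a at its upstream start, Ccng1, Bax and Sesn1 at its downstream start, against 8.36% of all windows. A pair of half-sites at most 13 bases apart was found in 1 of the 15, the upstream Cdkn1a window, against 0.07% of all windows. The windows of the Ink4 locus and of Cdkn1b and Bbc3 held no match to these letters. Cdkn1a and Mdm2, the best-known p53-responsive genes of the group, are shown with the matches to this pattern in capitals (RefSeq, GRCm38.p6).
Cdkn1a upstream start, chr17:29090729-29091028, plus strand: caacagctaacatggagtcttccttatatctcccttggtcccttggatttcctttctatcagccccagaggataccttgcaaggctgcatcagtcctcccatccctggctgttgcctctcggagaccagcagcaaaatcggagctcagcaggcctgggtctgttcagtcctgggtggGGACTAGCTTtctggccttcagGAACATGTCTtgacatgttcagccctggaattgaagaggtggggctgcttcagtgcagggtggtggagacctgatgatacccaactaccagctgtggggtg
Mdm2 start, chr10:117710709-117711008, minus strand: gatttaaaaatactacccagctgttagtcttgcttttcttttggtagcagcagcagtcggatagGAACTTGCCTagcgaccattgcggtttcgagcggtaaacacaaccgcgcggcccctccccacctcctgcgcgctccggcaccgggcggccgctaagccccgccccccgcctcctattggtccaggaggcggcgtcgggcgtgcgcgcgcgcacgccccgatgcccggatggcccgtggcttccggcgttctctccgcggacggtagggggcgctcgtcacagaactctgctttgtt
A match is a description of the sequence, not a measurement of binding. Sites that depart from the pattern or lie outside the windows were not marked.

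Between the genotypes, 0 of the 10 genes passed edgeR's quasi-likelihood test at an adjusted p of 0.05, with 0 at an unadjusted p under 0.05. Over all 14760 genes tested, 0.0203% passed and 4.15% had an unadjusted p under 0.05. DESeq2's Wald test also called 0 of the 10, where it called 0.166% of the genes it tested. The adjusted p was 0.999 for each of the 10 in edgeR, so it is not repeated below. Log2 fold changes are Dnmt3l-KO minus WT throughout. Their median over the 10 was 0.13, against 0.01 over all genes tested, with 7 positive and 3 negative. This direction rested on 1 library: without Dnmt3l-KO replicate 2 the median was -0.11 with 3 positive, and without WT replicate 2 it was 0.07 with 8 positive. Levels are given as CPM, counts scaled to the TMM-normalized library size, and compare a gene across libraries only.

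**Figure D1:**
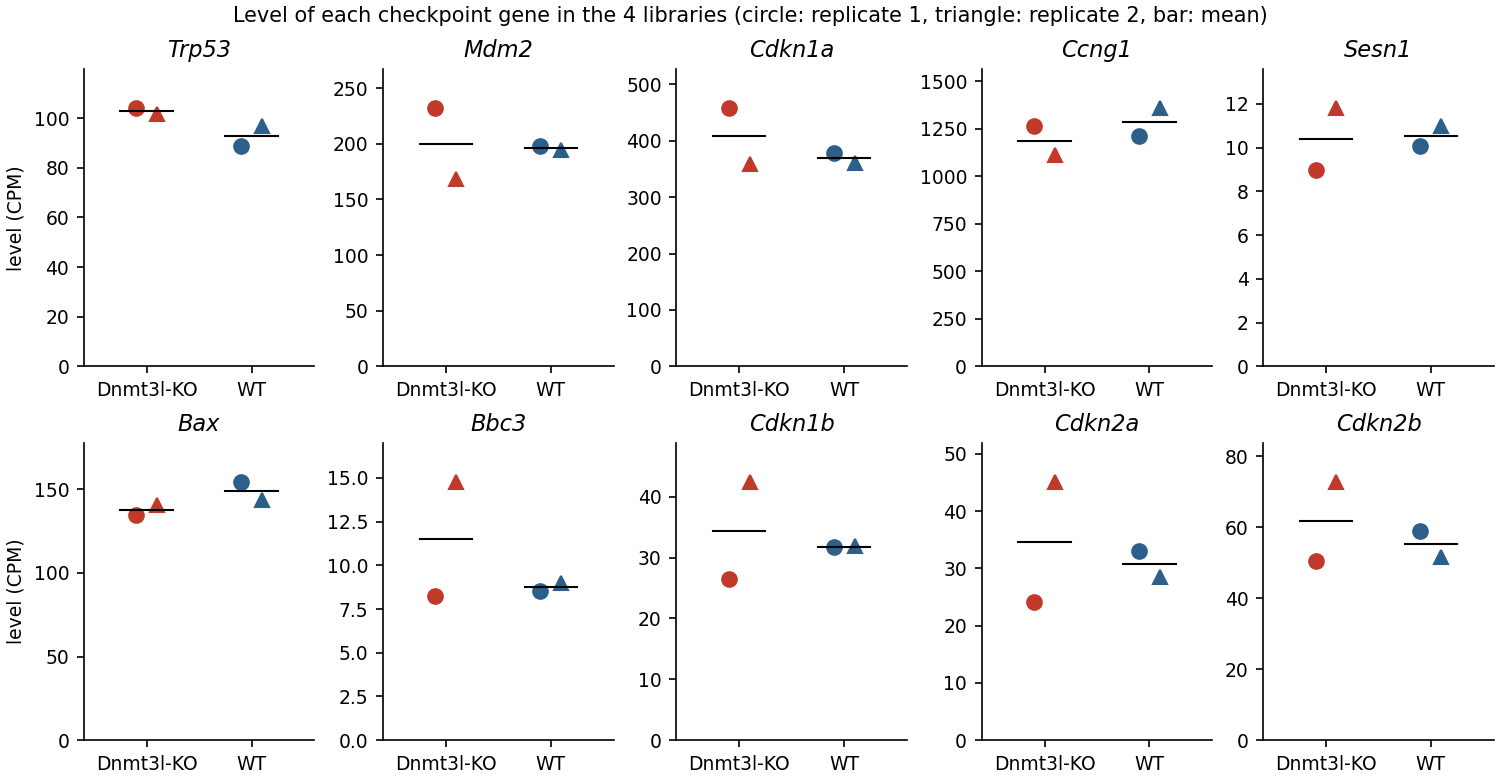
Level in CPM (y axis, from 0) of each of the 10 genes in the Dnmt3l-KO libraries (red) and the WT libraries (blue); circles are replicate 1, triangles replicate 2 and bars the mean. The Dnmt3l-KO points of Cdkn2a, at 24.2 and 45.1 CPM, enclose the WT points at 33.0 and 28.5 CPM, and those of Trp53 lie above both WT points.

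The Dnmt3l-KO libraries stood further apart from each other than the WT libraries did, and this touches most of the results that follow. For 8 of the 10 genes the log2 distance between replicates was larger in Dnmt3l-KO than in WT, against 65.2% of all genes tested. Both WT values lay inside the range of the Dnmt3l-KO values for 7 of the 10, Mdm2, Cdkn1a, Cdkn1b, Cdkn2a, Cdkn2b, Bbc3 and Sesn1, against 27.7% of all genes tested. The median size of the log2 difference between replicates was 0.43 in Dnmt3l-KO and 0.11 in WT over the 10 genes, and 0.22 in Dnmt3l-KO and 0.13 in WT over all genes tested. Most fibroblast markers moved with this split and were lower in Dnmt3l-KO replicate 1 than in replicate 2. Vim was the 1 exception, at 4665 CPM in replicate 1 and 4354 CPM in replicate 2. Fn1 was nearly level, at 7823 and 7863 CPM. The median of the 9 markers (Col1a1, Col1a2, Col3a1, Thy1, Pdgfra, Pdgfrb, Vim, Fn1, Postn) was 0.96 lower on the log2 scale in Dnmt3l-KO replicate 1 than in replicate 2, and their summed level was 18292 and 23792 CPM in Dnmt3l-KO, against 19862 and 16530 CPM in WT. The part of this split in the results below was not tested. In bulk RNA, fewer cells of a type and less RNA per cell cannot be told apart.

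Trp53 (chromosome 11, 69580348 to 69591873), which encodes p53 itself, had 104 and 102 CPM in Dnmt3l-KO, against 88.6 and 96.9 CPM in WT. Both Dnmt3l-KO libraries lay above both WT libraries. The log2 fold change was 0.15 ± 0.09 (SE), with a 95% interval of -0.09 to 0.39 and an unadjusted p of 0.167 (edgeR). Bax, described below, was the other gene of the 10 whose groups did not overlap, and the share over all genes tested was 32.8%, so 2 of 10 is not above the background. A processed pseudogene, Trp53-ps, was 94.9% identical to Trp53 over 1090 bases, and it had no row of its own in the table used here; how its reads were assigned is not stated.

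Mdm2 (chromosome 10, 117688875 to 117710758), the ubiquitin ligase that degrades p53 and is itself a p53 target, had 232 and 168 CPM in Dnmt3l-KO, against 198 and 194 CPM in WT. Replicate 1 of Dnmt3l-KO lay above the WT pair and replicate 2 below it. The log2 fold change was 0.03 ± 0.17 (SE, edgeR), with a 95% interval of -0.41 to 0.47. With replicate 1 as the only Dnmt3l-KO library the value was 0.24, and with replicate 2 alone it was -0.23.

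Cdkn1a (chromosome 17, 29090979 to 29100722) encodes p21, the inhibitor of cyclin-dependent kinases through which p53 arrests the cell cycle. It had 458 and 359 CPM in Dnmt3l-KO, against 378 and 361 CPM in WT. Dnmt3l-KO replicate 1 was the highest of the 4, and replicate 2 was level with the lower WT library. The log2 fold change was 0.14 ± 0.15 (SE, edgeR), with a 95% interval of -0.23 to 0.52, and it was 0.31 with replicate 1 and -0.04 with replicate 2 as the only Dnmt3l-KO library.

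Ccng1 (chromosome 11, 40748552 to 40755309), which encodes cyclin G1, a p53-induced regulator of Mdm2, had 1261 and 1112 CPM in Dnmt3l-KO, against 1212 and 1358 CPM in WT. The groups overlapped, and the log2 fold change was -0.12 ± 0.13 (SE, edgeR; 95% interval -0.45 to 0.22). Sesn1 (chromosome 10, 41810574 to 41908436), which encodes sestrin 1, a p53-induced inhibitor of growth signalling, had 8.97 and 11.8 CPM in Dnmt3l-KO, against 10.1 and 10.97 CPM in WT. Its WT values lay within the Dnmt3l-KO range, and its log2 fold change was -0.02 ± 0.18 (SE, edgeR; 95% interval -0.48 to 0.44).

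Bax and Bbc3 are the arm of the group that leads to cell death. Bax (chromosome 7, 45461695 to 45466903), which opens the outer mitochondrial membrane in apoptosis, had 135 and 141 CPM in Dnmt3l-KO, against 155 and 143 CPM in WT. Both Dnmt3l-KO libraries lay below both WT libraries, by a margin of 140.7 against 143.4 CPM at the nearest pair. In FPKM the groups overlapped, at 140.5 and 153 FPKM in Dnmt3l-KO, against 152.8 and 155 FPKM in WT, and the main transcript overlapped in CPM as well. The log2 fold change was -0.11 ± 0.09 (SE), with a 95% interval of -0.36 to 0.13 and an unadjusted p of 0.284 (edgeR). In GENCODE, 192 bases of its exons also belonged to Gm45808 on the same strand, and 273 bases of Cdkn1a exons lay opposite AC167363.2, and whether strand was used in counting is not stated, so reads in those stretches cannot be told apart.

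Bbc3 (chromosome 7, 16308398 to 16318334), which encodes PUMA, a trigger of apoptosis that neutralizes Bcl2 proteins, had 8.23 and 14.8 CPM in Dnmt3l-KO, against 8.51 and 8.96 CPM in WT. Dnmt3l-KO replicate 2 stood above the other libraries, which lay close together. Bbc3 had the highest log2 fold change of the 10, 0.40 ± 0.30 (SE), with a 95% interval of -0.37 to 1.16 and an unadjusted p of 0.242 (edgeR). It was 0.76 with replicate 2 as the only Dnmt3l-KO library and -0.09 with replicate 1.

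Of the cyclin-dependent kinase inhibitors that do not depend on p53, Cdkn1b (chromosome 6, 134920401 to 134925525), which encodes p27, had 26.4 and 42.4 CPM in Dnmt3l-KO, against 31.7 and 31.9 CPM in WT. Cdkn2a had 24.2 and 45.1 CPM in Dnmt3l-KO, against 33.0 and 28.5 CPM in WT, or 34.7 ± 14.8 CPM in Dnmt3l-KO and 30.8 ± 3.21 CPM in WT (SD, n = 2 each). Cdkn2b (chromosome 4, 89306289 to 89311032), the neighbour of Cdkn2a that encodes p15Ink4b, had 50.5 and 72.8 CPM in Dnmt3l-KO, against 59.0 and 51.6 CPM in WT. In all 3 genes Dnmt3l-KO replicate 1 was the lowest of the 4 libraries and replicate 2 the highest, so that neither genotype had the higher levels throughout.

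The log2 fold changes of the 3 inhibitors were 0.11 ± 0.24 for Cdkn1b, 0.17 ± 0.31 for Cdkn2a and 0.16 ± 0.20 for Cdkn2b (SE, edgeR). Their 95% intervals were -0.50 to 0.73 for Cdkn1b, -0.63 to 0.97 for Cdkn2a and -0.36 to 0.67 for Cdkn2b. For Cdkn2a the interval covers a level in Dnmt3l-KO of 0.648 to 1.96 times that in WT. With replicate 2 as the only Dnmt3l-KO library the values were 0.42 for Cdkn1b, 0.55 for Cdkn2a and 0.39 for Cdkn2b, and with replicate 1 they were -0.27, -0.35 and -0.13. In those fits 1 Dnmt3l-KO library remains and is assumed to vary like the WT pair. Without replicate 1, 4 of the 10 genes had an unadjusted p under 0.05 (Cdkn1b, Cdkn2a, Cdkn2b and Bbc3, adjusted p from 0.273 to 0.357 in edgeR), against 12.0% of all genes tested. Without replicate 2 there were 2, Mdm2 and Cdkn1a (adjusted p of 0.350 and 0.307 in edgeR), against 13.3%.

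**Figure D2:**
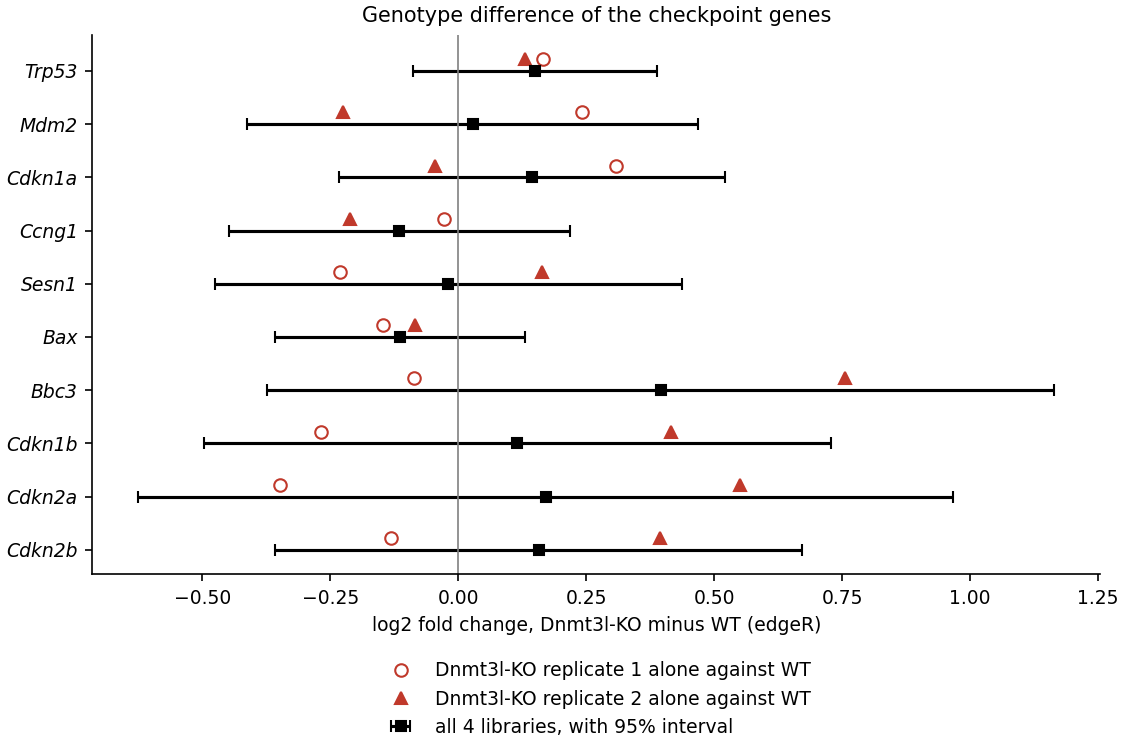
Log2 fold change (x axis, Dnmt3l-KO minus WT, edgeR) of each gene with all 4 libraries (black squares, bars are 95% intervals), and with replicate 1 (open circles) or replicate 2 (filled triangles) as the only Dnmt3l-KO library. All 10 intervals include 0, and circle and triangle fall on opposite sides of 0 for 7 genes, among them Cdkn2a at -0.35 and 0.55.

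The replicates of Dnmt3l-KO split the group in both directions. Mdm2, Cdkn1a, Ccng1 and Trp53 were higher in Dnmt3l-KO replicate 1 than in replicate 2, by log2 ratios of 0.47, 0.35, 0.18 and 0.03. Cdkn2a, Bbc3, Cdkn1b, Cdkn2b, Sesn1 and Bax were lower there, by log2 ratios of -0.90, -0.84, -0.68, -0.53, -0.40 and -0.06. Cdkn2a thus differed 1.86-fold between 2 libraries of the same genotype. Between the WT libraries the largest log2 ratio of the 10, replicate 1 over replicate 2, was 0.21, also for Cdkn2a. With 1 library on each side of these ratios there is no test of them.

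**Figure D3:**
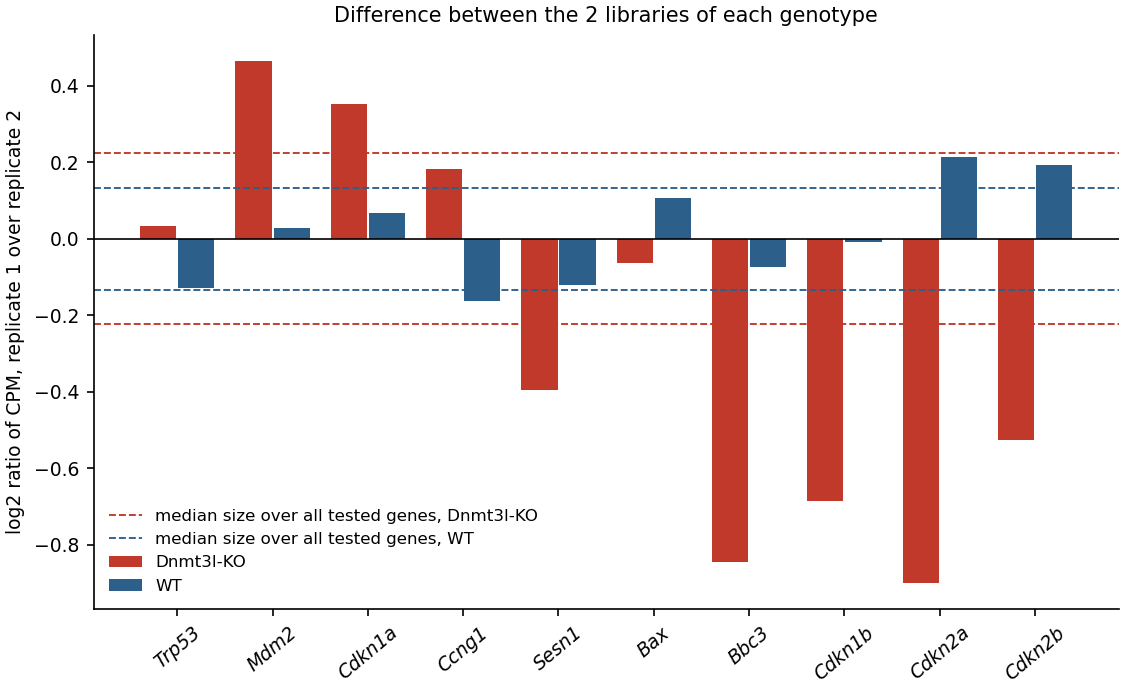
Log2 ratio of CPM in replicate 1 over replicate 2 (y axis) of each gene within Dnmt3l-KO (red) and within WT (blue); dashed lines mark the median size over all tested genes, 0.22 in Dnmt3l-KO and 0.13 in WT, on both sides of 0. The Dnmt3l-KO bars reach -0.90 for Cdkn2a, and the WT bars reach 0.21.

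Levels can be compared between genes only per length, in FPKM (fragments scaled by transcript length and library depth). On that scale Ccng1 was the most abundant of the 10, at 298 to 365 FPKM over the 4 libraries, followed by Cdkn1a at 170 to 217 FPKM and Bax at 141 to 155 FPKM, with no overlap between these 3 ranges. Mdm2, Trp53, Cdkn2b and Cdkn2a came next, and in this order each gene's range overlapped that of its neighbour, from 67.8 FPKM at the top of Mdm2 to 25.05 FPKM at the bottom of Cdkn2a. Cdkn1b at 6.89 to 12.1 FPKM overlapped Bbc3 at 3.95 to 7.66 FPKM, and Sesn1 was lowest at 2.84 to 3.77 FPKM. At passage 4, Cdkn1a thus stood above both Ink4 genes per length in each of the 4 libraries.

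The 10 genes had 31 transcripts in the table, of which 29 passed the filter. Tested one by one, 0 of the 29 were called in edgeR, where 0.00252% of all 39633 transcripts were, and 1 had an unadjusted p under 0.05, against 4.12% of all. In CPM, both Dnmt3l-KO libraries lay above both WT libraries for 5 of the 29 and below them for 3. Over all transcripts tested the groups did not overlap for 33.4%, so the separations named below are not above the background. Of the Cdkn2a forms, p19Arf had 8.13 and 21.4 FPKM in Dnmt3l-KO, against 10.9 and 13.7 FPKM in WT, and p16Ink4a had 16.9 and 26.8 FPKM in Dnmt3l-KO, against 21.5 and 16.5 FPKM in WT. Both forms were thus present in all 4 libraries, and p16Ink4a was the higher in each. The p19Arf share of Cdkn2a FPKM was 32.5% and 44.4% in Dnmt3l-KO, against 33.6% and 45.5% in WT. It followed the replicate number in both genotypes, lower in replicate 1 and higher in replicate 2, and hardly differed between genotypes. Whether same-numbered libraries share a batch is not stated, and this pattern was not tested. The log2 fold changes were 0.21 ± 0.47 for p19Arf and 0.14 ± 0.31 for p16Ink4a (SE, edgeR, adjusted p = 0.9999 for both, over all transcripts). Reads on the shared exons do not separate the forms, so these estimates rest on part of the reads.

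Cdkn1a had a transcript from each of its starts. The one from the downstream start at 29093769 had 163 and 143 FPKM in Dnmt3l-KO, against 128 and 129 FPKM in WT, and both Dnmt3l-KO libraries lay above WT (log2 fold change 0.21 ± 0.13, SE, edgeR, adjusted p = 0.9999). The window of the upstream start, at 29090979, holds the pair of pattern matches shown above, which is not a measurement of p53 binding. The transcript from that start had 53.7 and 34.4 FPKM in Dnmt3l-KO, against 41.9 and 47.6 FPKM in WT. Its share of Cdkn1a FPKM was 24.8% and 19.4% in Dnmt3l-KO, against 24.7% and 26.9% in WT, and the groups overlapped. Mdm2 had its main transcript at 73.7% and 77.3% of the gene's FPKM in Dnmt3l-KO, against 76.8% and 75.5% in WT, and a second curated transcript at 12.0% and 10.8% in Dnmt3l-KO, against 8.80% and 8.59% in WT. For that second transcript, higher in both Dnmt3l-KO libraries than in WT, edgeR gave 0.43 ± 0.25 as the log2 fold change (SE; adjusted p = 0.9999).

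The transcript with an unadjusted p under 0.05 was a predicted variant of Bbc3, X10. It had 149 and 88 counts in Dnmt3l-KO, against 28 and 29 counts in WT, a log2 fold change of 1.98 ± 0.55 (SE, unadjusted p = 0.0177, adjusted p = 0.9999 in edgeR). The authors' deposited table gave it a log2 fold change of 0.999, with a p of 0.00507 and an adjusted p of 0.327. How the authors' fit estimated fold changes is not stated, so its value and edgeR's need not be the same measure. Another predicted variant, X9, had the opposite order, with 34 and 43 counts in Dnmt3l-KO, against 87 and 66 counts in WT. The curated Bbc3 transcript had 146 and 299 counts in Dnmt3l-KO, against 191 and 126 counts in WT, with no separation. Bbc3 held 11 transcripts in the table, with few reads to divide among them. In 4 of its predicted variants at least 1 library had 0 counts while another had 13, 20, 38 or 108, so the split between variants is uncertain. Of the 23 transcripts of the 10 genes with an adjusted p in the authors' deposited table, 0 were below 0.05, whereas 124 of all 28097 such transcripts were.

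**Figure D4:**
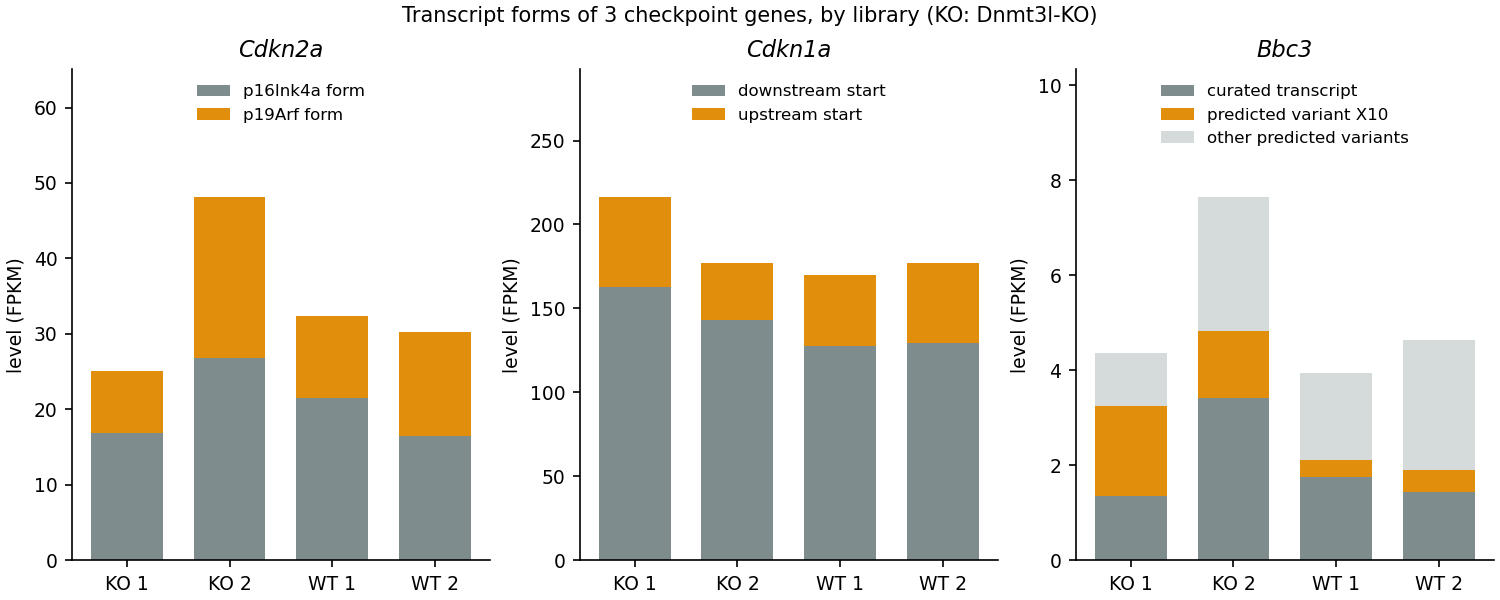
FPKM (y axis, from 0) of Cdkn2a, Cdkn1a and Bbc3 in each library, stacked by transcript form, with the Dnmt3l-KO libraries left of the WT libraries. The p19Arf part of Cdkn2a is 8.13 and 21.4 FPKM in Dnmt3l-KO and 10.9 and 13.7 FPKM in WT, and the X10 part of Bbc3 is 1.90 and 1.399 FPKM in Dnmt3l-KO and 0.354 and 0.461 FPKM in WT.

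Of 26 further p53 target genes, 0 passed in edgeR and 0 had an unadjusted p under 0.05, and their log2 fold changes, 10 positive and 16 negative, had a median of -0.02. Apart from Gadd45a and Bmi1, the genes named with this and the following lists were those with the smallest p between the genotypes. That choice favours groups that do not overlap, so their separation is not evidence of its own. Over all genes tested the groups did not overlap for 32.8%. Zmat3, an RNA-binding p53 target, had 251 and 256 CPM in Dnmt3l-KO, against 228 and 210 CPM in WT, without overlap (log2 fold change 0.21 ± 0.10, SE; adjusted p = 0.999 in edgeR). Pidd1, which encodes a scaffold of the caspase-2 complex, had 0 and 0.263 CPM in Dnmt3l-KO, against 0.531 and 0.886 CPM in WT, levels near 0 in all 4 libraries. Gadd45a, a damage-induced growth inhibitor, had 4.89 and 8.75 CPM in Dnmt3l-KO, against 6.79 and 4.53 CPM in WT.

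Regulators of p53 numbered 17, of which 0 passed and 0 had an unadjusted p under 0.05 in edgeR, and their median was -0.03. Rpl11, a ribosomal protein that binds and inhibits Mdm2 under ribosomal stress, had 423 and 409 CPM in Dnmt3l-KO, against 499 and 470 CPM in WT. Chek1, a kinase of the replication checkpoint, had 7.39 and 7.10 CPM in Dnmt3l-KO, against 8.64 and 9.29 CPM in WT. Neither gene's groups overlapped, with log2 fold changes of -0.22 ± 0.10 for Rpl11 and -0.31 ± 0.14 for Chek1 (SE, edgeR, adjusted p = 0.999). Rpl11 and Chek1 were named for their small p, which favours such separation.

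Among the other CDK inhibitors and the p53 family, 4 of 6 were tested, Trp63 and Trp73 being too low, and 0 passed in edgeR, where 0 had an unadjusted p under 0.05. Cdkn1c, which encodes p57, an imprinted relative of p21, had 63.2 and 27.6 CPM in Dnmt3l-KO, against 47.6 and 34.6 CPM in WT. Cdkn2d, which encodes p19Ink4d, had 7.03 and 12.0 CPM in Dnmt3l-KO, against 9.21 and 11.1 CPM in WT. Dnmt3l-KO replicate 1 was the highest library for Cdkn1c and the lowest for Cdkn2d, and in both genes the Dnmt3l-KO values enclosed those of WT.

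Downstream, 0 of 21 genes of the retinoblastoma and E2F axis passed in edgeR, and the median was 0.01. An unadjusted p under 0.05 in edgeR was found for 1, against 4.15% of all genes tested. E2f1, a transcription factor that retinoblastoma proteins hold inactive, had 28.5 and 24.9 CPM in Dnmt3l-KO, against 20.2 and 22.04 CPM in WT. Ccnd3, which encodes a D-type cyclin whose kinases Ink4 proteins inhibit, had 138 and 120 CPM in Dnmt3l-KO, against 106 and 114 CPM in WT. Both genes lay above WT in both Dnmt3l-KO libraries, with log2 fold changes of 0.34 ± 0.12 for E2f1 (unadjusted p = 0.0358) and 0.23 ± 0.11 for Ccnd3 (SE, edgeR, adjusted p = 0.999 for both). Their choice by small p favours this separation. Ccnd3 was at 0.12 without Dnmt3l-KO replicate 1 and at 0.13 with curated transcripts only.

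Of 17 regulators of the Ink4 locus, 0 passed in edgeR, and the median was 0.05. An unadjusted p under 0.05 in edgeR was found for 2, against 4.15% of all genes tested. Those 2 were Kdm6b, a demethylase that removes the Polycomb mark, with 33.4 and 37.9 CPM in Dnmt3l-KO, against 28.5 and 24.4 CPM in WT, and Zbtb7a, a repressor of Arf, with 68.0 and 67.9 CPM in Dnmt3l-KO, against 58.6 and 55.4 CPM in WT. Both lay above WT in both Dnmt3l-KO libraries, as their choice by small p favours, with log2 fold changes of 0.43 ± 0.13 for Kdm6b and 0.25 ± 0.09 for Zbtb7a (SE, edgeR, adjusted p = 0.999). With curated transcripts only, the values were 0.65 for Kdm6b and 0.04 for Zbtb7a. Bmi1, the Polycomb repressor of the Ink4 locus, was named after its values were seen and had 54.0 and 59.6 CPM in Dnmt3l-KO, against 56.6 and 56.9 CPM in WT.

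Of 12 genes of the Bcl2 family 10 were tested and 0 passed in edgeR, 0 had an unadjusted p under 0.05, and the median was -0.05. Bok, a Bax-like killer protein, had 26.9 and 20.4 CPM in Dnmt3l-KO, against 28.3 and 30.0 CPM in WT, and Mcl1, a survival protein, had 174 and 158 CPM in Dnmt3l-KO, against 176 and 189 CPM in WT. Both genes were below WT in both Dnmt3l-KO libraries, as their choice by small p favours, with log2 fold changes of -0.30 ± 0.16 for Bok and -0.14 ± 0.10 for Mcl1 (SE, edgeR, adjusted p = 0.999). Without Dnmt3l-KO replicate 1 the values were -0.52 for Bok and -0.21 for Mcl1, and without Dnmt3l-KO replicate 2 they were -0.12 for Bok and -0.07 for Mcl1. Mcl1 was also -0.09 without WT replicate 2.

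Of 17 senescence-associated secreted and structural genes 16 were tested and 0 passed in edgeR, and the median was -0.06. An unadjusted p under 0.05 in edgeR was found for 2, against 4.15% of all genes tested. Ccl2, a chemokine that attracts monocytes, had 29.9 and 32.02 CPM in Dnmt3l-KO, against 43.3 and 51.3 CPM in WT. Igfbp3, a secreted binder of insulin-like growth factors, had 43.4 and 49.97 CPM in Dnmt3l-KO, against 33.2 and 35.5 CPM in WT. Neither gene's groups overlapped, and they pointed in opposite directions, with log2 fold changes of -0.61 ± 0.12 for Ccl2 (unadjusted p = 0.0042) and 0.44 ± 0.11 for Igfbp3 (unadjusted p = 0.0116; SE, edgeR, adjusted p = 0.999 for both). Here too the choice by small p favours groups that do not overlap.

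**Figure D5:**
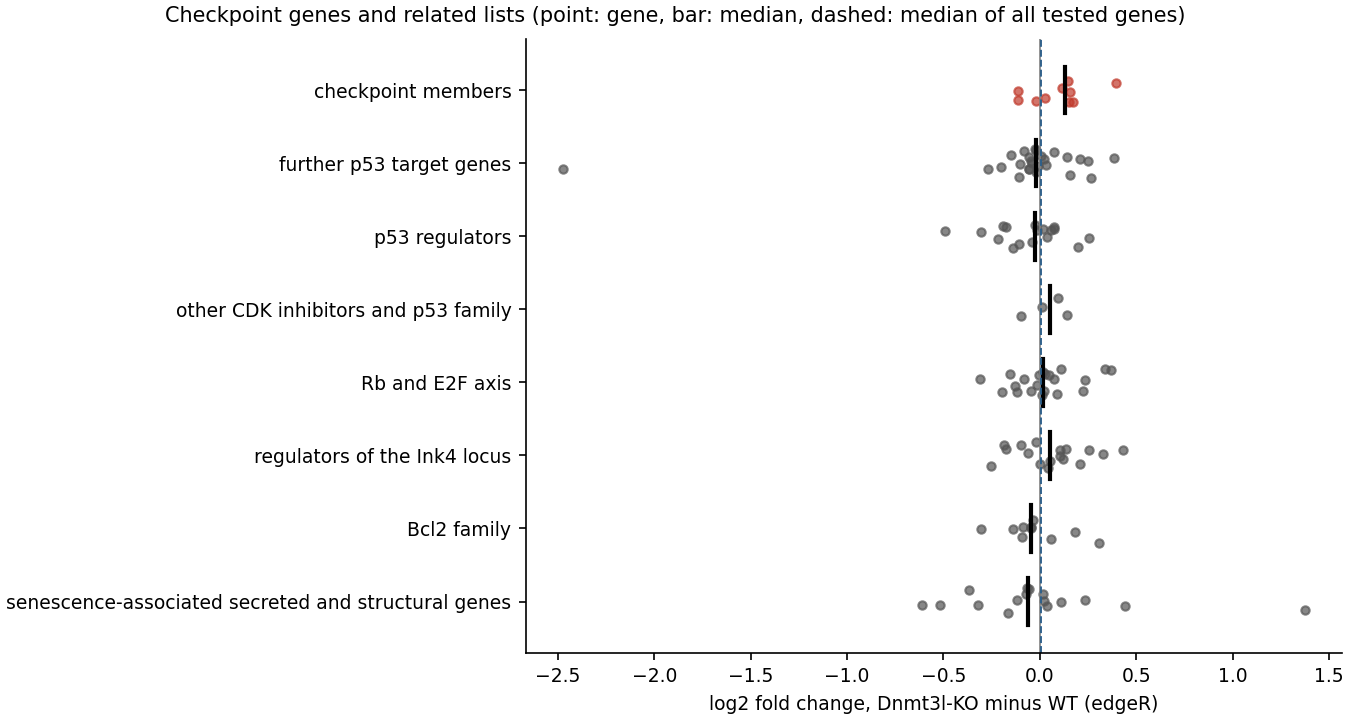
Log2 fold change (x axis, Dnmt3l-KO minus WT, edgeR) of every tested gene in the checkpoint group (red, top row) and in 7 related lists (grey); bars are medians and the dashed line is the median of all tested genes, 0.01. The list medians lie between -0.06 and 0.13, and the point at -2.47 is Pidd1, which had at most 0.886 CPM in any library.

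Likeness of pattern was measured as the Euclidean distance between centred log2 CPM over the 4 libraries, among 111 tested genes of these lists. Nearest to Trp53 were Rnf2, Tfdp1 and Daxx, at distances of 0.07, 0.08 and 0.08. Nearest to Cdkn1a were Ei24, Glb1 and E2f5, at 0.15 each. Nearest to Cdkn2a were Bcl2l11, Ets2 and Gadd45a, at 0.21, 0.27 and 0.29. Ets2, which encodes a transcription factor that can activate p16Ink4a, had 23.8 and 49.1 CPM in Dnmt3l-KO, against 32.1 and 35.0 CPM in WT, and like Cdkn2a it was lowest and highest in the Dnmt3l-KO libraries. These distances are descriptions with no test.

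Total counts were 51465395 and 40681328 in Dnmt3l-KO and 47776612 and 41049869 in WT. Every one of the 9 fibroblast markers was detected in all 4 libraries, and Col1a1 was never below 3205 CPM. Markers of other cells were summed in the same way. The 6 macrophage and leukocyte markers summed to 7.01 and 6.24 CPM in Dnmt3l-KO and 6.33 and 6.61 CPM in WT. The 4 endothelial markers summed to 18.6 and 5.98 CPM in Dnmt3l-KO and 7.49 and 9.46 CPM in WT, nearly all from Kdr, while Pecam1 and Cdh5 reached at most 0.191 and 0.240 CPM. The 4 epithelial markers summed to 5.83 and 3.97 CPM in Dnmt3l-KO and 7.62 and 5.80 CPM in WT, and the 4 muscle markers to 27.2 and 16.2 CPM in Dnmt3l-KO and 17.0 and 16.9 CPM in WT, nearly all from Des. The 4 neural markers summed to 155 and 128 CPM in Dnmt3l-KO and 163 and 127 CPM in WT, most of it from Nes and Tubb3.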

How the data were processed

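RNA depleted of ribosomal RNA was sequenced from random-primed libraries, per the labels' protocols. Build mm10 and the programs eXpress (1.4.1), TopHat2 (2.0.12), Cufflinks (2.2.1) and DESeq2 (1.8.0) are named by the submitters' processing notes, without their roles. Each RefSeq transcript has, per the file headers, 1 estimated count and 1 FPKM value for every library. The authors' own comparison stands beside them, as a mean signal, a log2 fold change, the error and test statistic that belong to it (deposited scores), and the authors' p-value before and after adjustment. All deposited estimated counts were whole numbers.

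Counts were summed per symbol. The 14760 symbols that passed edgeR's own filter were compared by its quasi-likelihood test (version 4.0.16, R 4.3.3, robust, TMM), with Benjamini-Hochberg adjustment. Standard errors were derived from the F statistic. Transcripts were tested likewise. The test was tested on simulated data. Alternatives used other normalizations, filters, DESeq2 1.42.0, limma 3.58.1 (limma-voom, or log2(FPKM + 1) and log2(FPKM + 0.1)), curated transcripts, a replicate block and each library left out. Copies were sought with BLAST 2.17.0, at 90% identity over 200 bases or more.

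The genes and lists were chosen with earlier results of these data known. Named genes are the 10, the 2 with the smallest p of each list and the nearest in pattern; others are said to be named after their values were seen. Depth was 40681328 to 51465395 counts per library. PCR copies are not independent molecules, and the intervals rest on the spread between 2 libraries per genotype, moderated across the genes or transcripts tested.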

Additional observations from a re-analysis of the deposited data

How the results depend on the processing

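The count of checkpoint genes called was 0 in all 15 alternatives, and that of their transcripts 0 in all 8. The count of all genes called, 3 in the reported fit, was 31 in DESeq2, 6 in limma with FPKM + 1, 9 in limma with FPKM + 0.1, 8 with no filter, 0 with curated transcripts only (542 at an unadjusted p under 0.05 in edgeR), and 2 to 6 with a library left out. All transcripts called, 1 in the reported fit, came to 204 in DESeq2, 6 with no filter, 0 with the replicate block (1241 at an unadjusted p under 0.05 in edgeR) and 0 with any library left out (1489 to 2735 at that unadjusted p). The replicate numbers are not known to pair the libraries. Same-numbered deviations of gene levels correlated at r = 0.0999 over 14760 genes, but the p19Arf share of Cdkn2a followed the replicate number. With the replicate block 0 checkpoint genes and 4 genes in all were called.

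Trp53, Ccng1 and Bax kept the sign of their log2 fold change in all 15 alternatives (0.09 to 0.21, -0.21 to -0.03 and -0.17 to -0.06). The other 7 depended on which library was left out. Their ranges with each library left out were -0.23 to 0.24 for Mdm2, -0.045 to 0.31 for Cdkn1a, -0.27 to 0.42 for Cdkn1b, -0.35 to 0.55 for Cdkn2a, -0.13 to 0.39 for Cdkn2b, -0.086 to 0.76 for Bbc3 and -0.23 to 0.16 for Sesn1. Sesn1 also turned in limma, to 0.0096 with FPKM + 1 and 0.011 with FPKM + 0.1. The p19Arf and p16Ink4a transcripts ranged over -0.61 to 0.73 and -0.19 to 0.43. Of the other genes named, Cdkn1c (-0.58 to 0.62), Cdkn2d (-0.53 to 0.24), Daxx (-0.0077 to 0.16), Ei24 (-0.12 to 0.15), E2f5 (-0.096 to 0.14), Bcl2l11 (-0.092 to 0.62), Ets2 (-0.50 to 0.55) and Gadd45a (-0.22 to 0.62) changed sign with a library left out. The cause was not tested. With 2 libraries per genotype, the 95% intervals in the report give the size of difference that could have been missed between these libraries only. Whether the libraries of 1 genotype stem from different embryos or lines is not stated, so the intervals may leave out variation between lines.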
